A study of Mus musculus with 18 samples.

Results

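Hoxd13 and Hoxd12 are the 2 genes nearest the 5′ end of the mouse HoxD cluster, and their contacts with the rest of the locus were taken from chromosome conformation capture carbon copy (5C) matrices. 5C cuts cross-linked chromatin with a restriction enzyme, religates it and counts, by pairs of primers, how often a forward fragment was joined to a reverse one. Each forward-reverse pair at least 10 kb apart was a member if 1 end lay on a fragment whose midpoint falls in chr2:74498312-74516251 of the mm9 genome, a stretch that covers both genes and leaves out Evx2. That gave 6 EcoRI fragments of 133 and 381 fragment pairs of 4251 in the design used for embryonic stem (ES) cells, and the same 6 fragments of 203 and 591 pairs of 10068 in the design used for limb cells. In each design 3 of the member pairs joined 2 fragments of the region itself. The rule uses position and primer side, and the sides were read from which pairs hold reads in these matrices. The size of the frequencies below did not choose the members.

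Hox genes are laid out along their clusters in the order in which they are used along the body axes. Hoxd13 and Hoxd12 encode homeodomain transcription factors used late and distally, in the digits, and Evx2 is a homeobox gene that lies next to them and is transcribed the other way. Enhancers for this use lie in the gene desert on the 5′ side, among them the global control region (GCR) and the Prox element near Lnp and the island IslIII further out, while the desert on the 3′ side, past Mtx2, holds enhancers used earlier. In ES cells the cluster is silent and carries Polycomb proteins: Eed is a core subunit of Polycomb repressive complex PRC2, which methylates histone H3 at lysine 27, and Ring1B is the catalytic subunit of PRC1, which ubiquitylates histone H2A.

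There were 18 libraries in 9 groups. The ES-cell design covered 14 libraries: undifferentiated OS25 cells (OS25 UD, n = 2), OS25 cells after 3 days of differentiation without LIF with retinoic acid for the last 2 days (D3, n = 2), wild-type WTF18 cells (n = 2), Eed-/- cells (n = 2), Ring1B-/- cells (n = 3), Ring1B-/- cells into which wild-type Ring1B was put back (n = 2) and Ring1B-/- cells given Ring1B with the I53A change, which impairs its ligase activity (n = 1). The labels give feeder fibroblasts for the ES-cell cultures, and the methods state that feeders were let reattach to plastic and so removed before 5C; what was left of them was not measured. The treatment label of the OS25 UD libraries carries the same text on differentiation as that of D3, so that these groups were told apart by the sample titles alone. The limb design covered 4 libraries of mesenchymal lines from the distal forelimb buds of E10.5 Immortomouse embryos, grown with γ-interferon at 33°C, from the anterior bud (A2, n = 2) or the posterior bud (P2, n = 2). All of these are cultured lines, A2 and P2 stand for 1 line each, and the labels do not say which of the 2 Eed-/- clones named in the methods gave which library. The titles call the WTF18 libraries Ring1B wild type, and the methods cite another source for the Eed-/- cells than for the Ring1B-/- cells. In comparisons of Eed-/- with WTF18 or Ring1B-/- cells, genotype and cell line therefore cannot be told apart.

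The 6 fragments run 5′ to 3′ and are called here by the numbers the files give them. Fragments 68 (477 bp) and 69 (6741 bp) hold intergenic DNA between Evx2 and Hoxd13, fragment 70 (6159 bp) holds the whole of Hoxd13 (plus strand, chr2:74506367-74509656), and fragments 71 (2268 bp), 73 (1467 bp) and 74 (813 bp) hold Hoxd12 (plus strand, chr2:74512986-74515763). A 15-bp piece between fragments 71 and 73 had no primer. The bases before each fragment's 3′ cut are shown because a fragment can be told from its neighbours only at such a cut. They are given on the plus strand of mm9, 30 bases each, with the EcoRI site in capitals.

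Fragment 68, chr2:74498762-74498791, intergenic: ttctcccacccttctcaaatagagGAATTC

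Fragment 69, chr2:74505503-74505532, intergenic: ttgtcaggcttgcggcttcgagatGAATTC

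Fragment 70, chr2:74511662-74511691, intergenic, between Hoxd13 and Hoxd12: gaggatgctccagtagaaaggagaGAATTC

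Fragment 71, chr2:74513930-74513959, coding sequence of Hoxd12: cagcagattgcggagctggagaacGAATTC

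Fragment 73, chr2:74515412-74515441, noncoding part of a Hoxd12 exon: aatctgtccagcctcattcccagtGAATTC

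Fragment 74, chr2:74516225-74516254, intergenic, between Hoxd12 and Hoxd11: ccaggacttcagcaggctccttagGAATTC

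The cut that ends fragment 71 thus lies within the coding sequence of Hoxd12, so the 3 Hoxd12 fragments report on different parts of 1 small gene. The partners that gave the strongest pairs with these fragments were fragment 67 (15260 bp), which holds the whole of Evx2, and fragment 75 (8066 bp), which holds most of Hoxd11. Their ends are shown for the same reason.

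Fragment 67, chr2:74498285-74498314, intergenic, between Evx2 and Hoxd13: aatgagtattttatttaacaaataGAATTC

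Fragment 75, chr2:74524291-74524320, noncoding part of a Hoxd11 exon: ctcagaaagtgattattttgtttaGAATTC

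Values are mean frequencies per fragment pair, in reads per 1000 reads of the library, as the authors scaled them. The spacing of the values put the total at 216419 to 1708047 reads in the ES-cell libraries and 478818 to 2096682 in the limb libraries, so that 3 reads correspond to 0.00176 to 0.0139 and 0.00143 to 0.00627. Pairs of Hoxd13 and Hoxd12 took 8.04% to 19.1% of all HoxD signal at 10 kb or more in ES-cell libraries and 8.17% to 11.3% in limb libraries. No read was seen in up to 65.9% of member pairs in the ES-cell libraries and in 0.677% to 11.2% in the limb libraries. The share of member pairs without reads was highest in the 2 Eed-/- libraries (65.1% and 65.9%, against 47.5% and 50.9% in WTF18 cells), and its part in the results for Eed-/- cells was not tested. Over all pairs of the design the share was 62.7% and 60.3% in Eed-/- and 59.2% and 59.8% in WTF18 cells. There it was highest in replicate 1 of the wild-type Ring1B rescue (63.5%). Replicates differed by far more than counting error, with a chi-square of 56.2 to 201 per degree of freedom over the member pairs of the ES-cell groups and 18.5 to 19.0 in the limb groups.

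In undifferentiated ES cells, contacts were strongest with the direct neighbours, stayed high as far as Hoxd1 and dropped sharply past it. The single pair with the Hoxd11 window stood at 3.58 and 7.12 in the OS25 UD libraries and at 5.58 and 5.67 in WTF18 cells. The Evx2 window (5 pairs) stood at 1.61 and 3.41 in OS25 UD and at 2.07 and 1.66 in WTF18 cells. Within the cluster the next 3 windows lay close together, and their order was not resolved by 2 libraries: in WTF18 cells Hoxd10-Hoxd8 stood at 0.855 ± 0.14 (SD, n = 2), Hoxd4-Hoxd3 at 0.733 ± 0.14 and the window with the 3′ end of Hoxd3 and Hoxd1 at 0.591 ± 0.11. The 4 fragments of the window called Hoxd10-Hoxd8 cover chr2:74537329-74548285 in both designs. They do not reach Hoxd10 (chr2:74529147-74533163) or the 5′ part of Hoxd9, which starts at 74535737. Contacts of Hoxd10 were thus not measured.

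Past Hoxd1 the level in WTF18 cells was 0.0865 ± 0.0074 in the interval before Mtx2, 0.0816 ± 0.015 over Mtx2 and 0.0976 ± 0.0089 in the desert beyond it. No decline with distance was seen over these 3 windows, whose centres lie 113, 188 and 312 kb 3′ of the centre of the region. On the 5′ side the level was 0.181 ± 0.065 with Prox, 0.111 ± 0.036 with Lnp and 0.0804 ± 0.015 with the GCR, whose centres lie at -51.0, -143 and -222 kb (negative, 5′ side). Hoxd1, 86.5 kb away on the 3′ side, thus gave a higher level than Prox in each of the 4 libraries of OS25 UD and WTF18 cells: the lowest value with the Hoxd1 window was 0.510 and the highest with Prox 0.230. Partner windows were read with different primers, and these levels carry no correction for primer efficiency. How far the shape of the profile follows the primers was not tested.

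**Figure D1:**
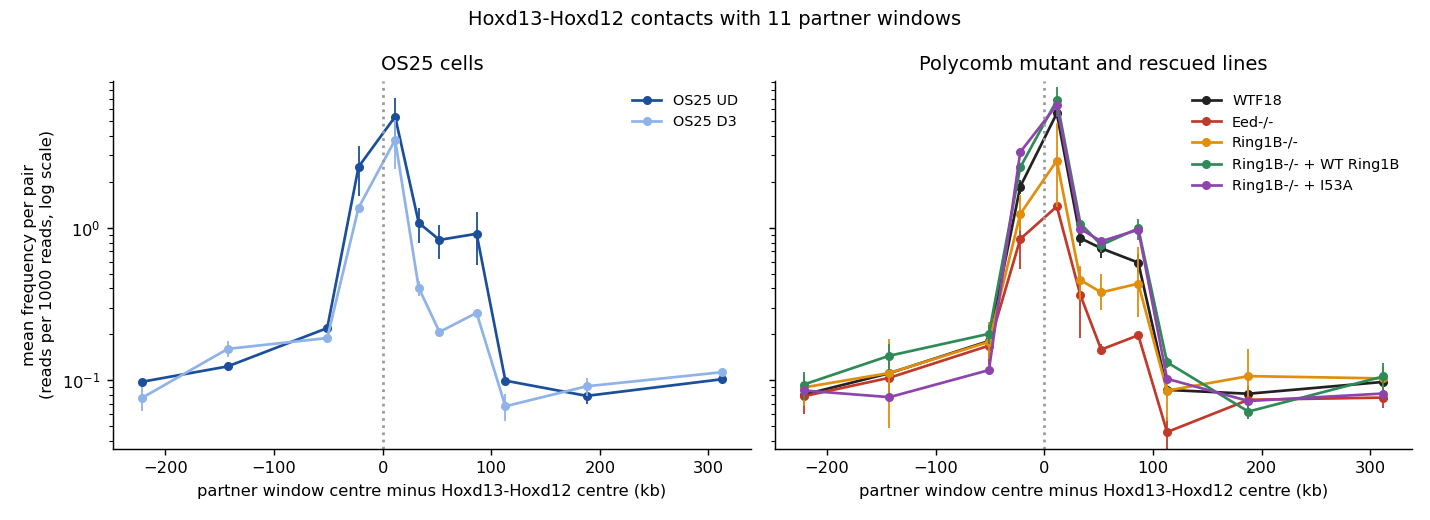
Mean frequency per fragment pair (reads per 1000 reads, log scale) of the Hoxd13 and Hoxd12 fragments with 11 partner windows, plotted at each window centre's distance in kb from the centre of the region (negative, 5′ side). Points are group means and vertical lines run from the lowest to the highest library (1 library for I53A); the group means of Hoxd4-Hoxd3, at 52.3 kb, run from 0.159 in Eed-/- to 0.833 in OS25 UD cells, and those of the GCR, at the left end, from 0.0766 to 0.0978.

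The strongest single pair in each of the 7 ES-cell groups joined the Hoxd13 fragment (70) to the Evx2 fragment (67), whose midpoints are 17.9 kb apart. It stood at 5.71 and 12.7 in OS25 UD, 7.97 and 6.04 in WTF18, 5.36 and 5.23 in D3, 1.57 and 3.55 in Eed-/-, 5.32, 2.75 and 3.37 in Ring1B-/-, 11.3 and 9.50 in the wild-type Ring1B rescue and 13.9 in the I53A library. The Eed-/- libraries held the lowest value and the I53A library the highest, and the Ring1B-/- libraries all lay below those of WTF18. The second pair in 6 of the 7 groups joined the intergenic fragment 69 to the Hoxd11 fragment 75, 18.1 kb apart; in Eed-/- cells it was the third, below fragment 69 with fragment 79 (intergenic, chr2:74538485-74542114), which rested on unequal libraries (2.26 ± 2.5, SD, n = 2).

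Further off, the Hoxd13 fragment gave strong pairs with fragment 88 (chr2:74565758-74572992), which spans parts of Hoxd4 and Hoxd3, 60.8 kb away. That pair stood at 3.33 ± 1.8 (n = 2) in OS25 UD, 2.92 ± 0.16 (n = 2) in the wild-type Ring1B rescue and 5.47 in the I53A library. On the 3′ flank the strongest pair of 5 of the 7 groups joined fragment 73, in Hoxd12, to an intergenic fragment beyond Mtx2 (chr2:74751788-74756398), 239 kb away. It stood at 3.64 and 0.964 in OS25 UD, and at means of 1.55 ± 0.23 (n = 2) in D3, 1.08 ± 0.49 (n = 2) in WTF18, 1.03 ± 0.25 (n = 3) in Ring1B-/- and 0.619 ± 0.040 (n = 2) in Eed-/- cells. By group mean this 1 pair, picked as the highest of 210, was above the average of the cluster pairs in each of these 5 groups. By library it was below that average in OS25 UD replicate 2 (0.964 against 1.30) and in WTF18 replicate 2. There it stood at 0.727, where the WTF18 cluster means were 0.834 and 0.853. The 3′ flank as a whole stood between 0.0679 and 0.125 in the libraries of these groups.

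The 6 fragments differed widely in level. With the rest of the cluster (46 pairs from Hoxd11 to Hoxd1), WTF18 cells gave 1.64 ± 0.40 (SD, n = 2) for fragment 69 and 1.54 ± 0.097 for the Hoxd13 fragment 70, but 0.223 ± 0.14 and 0.212 ± 0.10 for fragments 71 and 74 of Hoxd12. Fragment 73, also in Hoxd12, stood between them at 0.565 ± 0.072. An efficiency factor for each primer, fitted on pairs at least 120 kb apart, ranked fragments 70 and 69 12th and 20th of 133, and fragments 71 and 74 126th and 131st. How far the levels follow the primers rather than the genes cannot be told apart here, so fragments were compared with themselves across groups.

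Contacts of Hoxd13 and Hoxd12 with the rest of the cluster fell on differentiation, while those with either flank gave no call. The mean over the 46 cluster pairs was 0.724 and 1.30 in OS25 UD and 0.307 and 0.392 in D3, so the groups did not overlap. The fall was 1.43 on the log2 scale (SE 0.33, adjusted p = 0.0119, limma on log2 of the mean + 0.02), a level 37.1% of that before differentiation. Of the 4 tests that involve the region (each flank, the cluster and the region itself), this 1 passed the threshold of 0.05, against 10% of all 10 region pairs tested. Without OS25 UD replicate 2, the higher of the undifferentiated libraries, the change was -1.02 with an adjusted p of 0.184, and without D3 replicate 1 it was -1.26 with an adjusted p of 0.107.

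The 5′ flank ran from the GCR to Evx2, here and in every other test of that flank. Its levels were 0.199 and 0.264 in OS25 UD and 0.194 and 0.168 in D3, so both D3 libraries lay lower. Of its 122 pairs, the 5 with Evx2 stood at 1.61 and 3.41 in OS25 UD and at 1.33 and 1.38 in D3. By group mean Prox (0.220 to 0.189) and the GCR (0.0978 to 0.0766) were also lower in D3, and Lnp was higher (0.123 to 0.161). With the 3′ flank the levels were 0.0988 and 0.0958 against 0.107 and 0.0933, values that overlap. All 6 fragments had both D3 libraries below both OS25 UD libraries in the cluster, at 22.4% (fragment 73) to 45.2% (fragment 69) of the earlier level. No such share is given here for the other fragments of the design, so this count has no background beside it. Of the 46 cluster pairs, 35 (76.1%) lay lower in both D3 libraries, against 9.15% of all pairs of the design, and 0 lay higher, against 14.1%. On the 5′ flank 11 pairs (9.02%) lay lower and 11 higher.

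The size of the fall differed between partner windows. Hoxd4-Hoxd3, which stood at 0.626 and 1.04 in OS25 UD and 0.205 and 0.210 in D3, fell by 1.86 (SE 0.32, adjusted p = 0.00695) and was the 1 window of 12 to pass, against 2.7% of all 74 window pairs. It no longer passed without OS25 UD replicate 2 (-1.51, adjusted p = 0.142) or D3 replicate 2 (-1.88, adjusted p = 0.0670). Hoxd10-Hoxd8 changed by -1.33 (adjusted p = 0.0886) and the Hoxd1 window by -1.55 (adjusted p = 0.0861). The nearest neighbours moved less: Hoxd11 by -0.51 (SE 0.55, adjusted p = 0.721) and Evx2 by -0.78 (SE 0.42, adjusted p = 0.371), with D3 values of 2.44 and 5.11 for Hoxd11 that overlap those before differentiation. Whether the changes of these windows differ from each other was not tested.

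**Figure D2:**
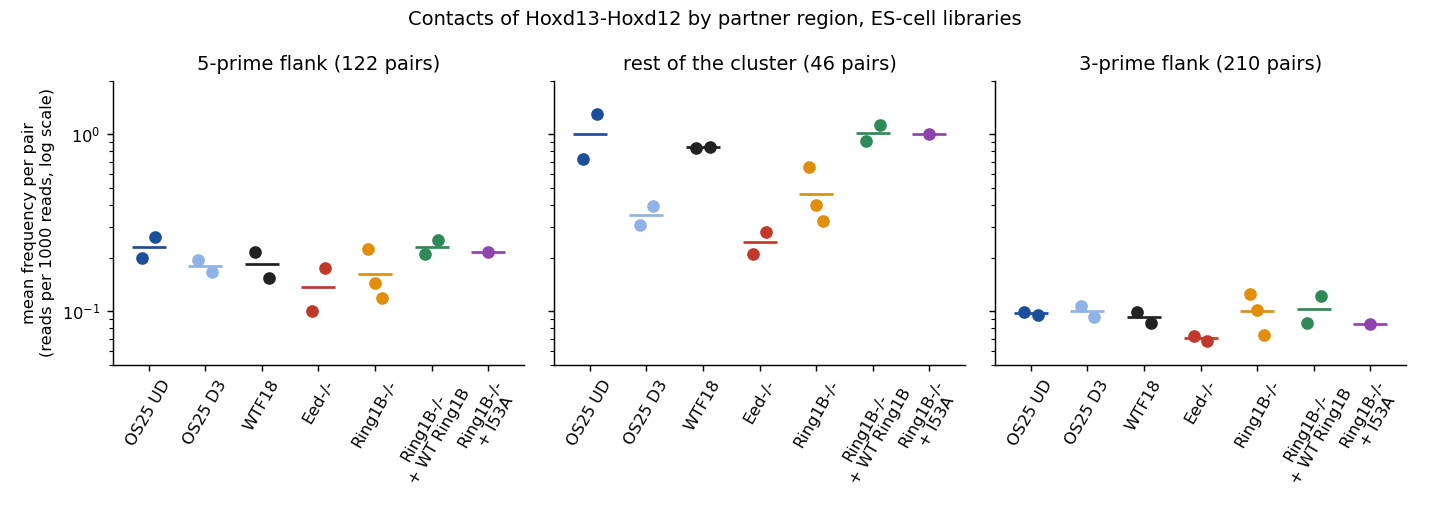
Mean frequency per fragment pair (reads per 1000 reads, log scale) of Hoxd13 and Hoxd12 with the 5′ flank, the rest of the cluster and the 3′ flank in the 14 ES-cell libraries. Each point is a library and each bar a group mean; the groups spread from 0.210 to 1.30 in the middle panel and from 0.0679 to 0.125 in the right one.

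The contacts of Hoxd13 and Hoxd12 with the cluster fell in Eed-/- cells, and neither flank passed the test, though Eed-/- cells had the lowest group mean in both flanks too. Cluster pairs averaged 0.210 and 0.281 in Eed-/- cells against 0.834 and 0.853 in WTF18 cells, a fall of 1.71 (SE 0.33, adjusted p = 0.00147) to 30.5%. This call held in each of the 17 alternative settings, with changes from -1.91 to -1.46. The contacts inside the region fell too, by 1.63 (SE 0.45, adjusted p = 0.0128), from 0.658 and 0.712 to 0.158 and 0.272. Together these were 2 of the 4 tests of the region, against 40% of all region pairs. The second rested on 1 pair, fragment 69 with fragment 73 (1.67 and 1.51 in WTF18, 0.189 and 0.486 in Eed-/-). Without that pair the change was -0.48 with an adjusted p of 0.714, and the call was also lost without WTF18 replicate 2 (adjusted p = 0.0628) or Eed-/- replicate 1 (0.0974).

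With the flanks the levels of the groups overlapped on the 5′ side (0.217 and 0.155 in WTF18, 0.101 and 0.175 in Eed-/-) and lay apart on the 3′ side (0.0995 and 0.0858 against 0.0728 and 0.0679), without passing the test on either. All 6 fragments had both Eed-/- libraries below both WTF18 libraries in the cluster, at 16.6% (fragment 68) to 42.4% (fragment 74). Here too the count has no share of the other fragments beside it. Of the 46 cluster pairs, 29 (63%) were lower in both, against 10.1% of all pairs, and 0 were higher, against 8.56%.

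Of the 12 windows tested with the region, 5 fell in Eed-/- cells, against 23% of all window pairs, and 0 rose, against 1.35%. These were Hoxd4-Hoxd3 (-2.07, SE 0.32, adjusted p = 0.00135), Hoxd11 (-2.02, SE 0.55, adjusted p = 0.0205), the region itself (-1.63, adjusted p = 0.0277), Hoxd10-Hoxd8 (-1.35, adjusted p = 0.0373) and the Hoxd1 window (-1.48, adjusted p = 0.0373). Evx2 stood at 0.534 and 1.15 against 2.07 and 1.66 and just missed the threshold (-1.21, SE 0.42, adjusted p = 0.0560). Prox, Lnp and the GCR changed by -0.09, -0.08 and -0.05, with SEs of 0.35, 0.44 and 0.31. Without WTF18 replicate 1, WTF18 replicate 2 or Eed-/- replicate 1, Hoxd4-Hoxd3 was the 1 window left past the threshold, and the adjusted p of Hoxd11, for one, was 0.0710 to 0.0990. Without Eed-/- replicate 2, Hoxd11 (adjusted p = 0.0867) and the Hoxd1 window (0.134) no longer passed.

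The comparisons of Ring1B-/- cells share the WTF18 libraries with those of Eed-/- cells, and the comparisons of the rescued cells share the Ring1B-/- libraries. Cluster pairs averaged 0.656, 0.396 and 0.325 in the Ring1B-/- libraries, each below both WTF18 libraries. The change was -0.91 (SE 0.30, 95% interval -1.58 to -0.24, adjusted p = 0.0602) and did not pass, and 0% of all 10 region pairs passed. The highest of the 3 is the library whose label carries no replicate number, called replicate 3 here, and without it the change was -1.19 with an adjusted p of 0.00188. Contacts inside the region stood at 0.959 in that library, 0.607 and 0.338 in the other two, around the WTF18 values.

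In the wild-type Ring1B rescue the cluster pairs averaged 0.914 and 1.13, above each Ring1B-/- library. They rose by 1.17 (SE 0.30, adjusted p = 0.0253), which was 1 of the 4 tests of the region against 20% of all region pairs. This call was lost without Ring1B-/- replicate 1 (adjusted p = 0.117), Ring1B-/- replicate 2 (0.131), rescue replicate 1 (0.0724) or rescue replicate 2 (0.154). The single I53A library stood at 1.01, between the rescue libraries. Its change from Ring1B-/- was 1.16 (SE 0.39, adjusted p = 0.0850), with a spread borrowed from the other groups, and without Ring1B-/- replicate 3 it was 1.44 with an adjusted p of 0.00288.

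The fragments did not share the rise equally. Fragments 68, 69, 70 and 71 stood in the wild-type rescue at 284%, 230%, 267% and 223% of their Ring1B-/- means. For each of these 4 the groups did not overlap, a count with no share of the other fragments of the design beside it. Fragments 73 and 74, at the 3′ end of Hoxd12, stood at 105% and 122% with overlapping libraries, and in the I53A library at 93.9% and 112%. In Ring1B-/- against WTF18 cells, fragment 73 was also the least changed, at 80.6% of the WTF18 level, where the other five stood at 38.9% to 59.0%. Whether fragments differ in their change was not tested. At the level of pairs, 17 of 46 (37%) lay higher in both rescue libraries, against 6.85% of all pairs, and 3 (6.52%) lay lower, against 8.14%.

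**Figure D3:**
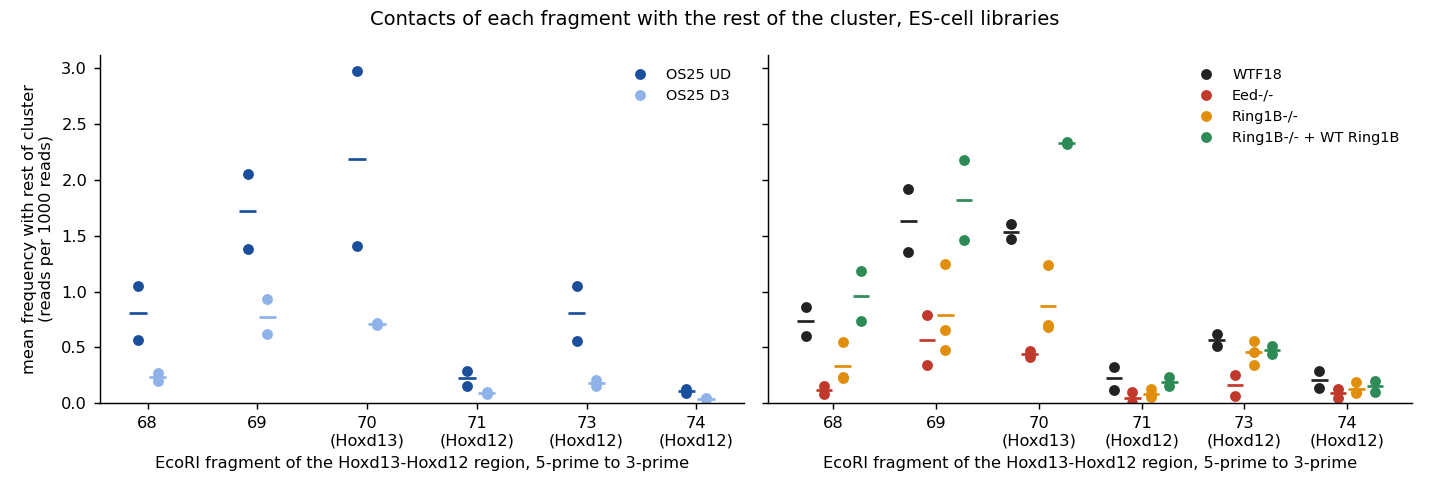
Mean frequency (reads per 1000 reads) of each of the 6 EcoRI fragments of the region, 5′ to 3′, with the rest of the cluster. Points are libraries and bars group means; on every fragment the D3 points lie below the OS25 UD points and the Eed-/- points below the WTF18 points, while on fragments 73 and 74 the Ring1B-/- and rescue points overlap.

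Direct comparison of the mutants gave a smaller difference. In the cluster Eed-/- cells stood 0.80 below Ring1B-/- cells on the log2 scale (SE 0.30, adjusted p = 0.0753), and both Eed-/- libraries lay below the 3 of Ring1B-/-. Inside the region they stood 1.41 lower (SE 0.41, adjusted p = 0.0274), which was 1 of 4 tests against 20% of all region pairs and again rested on fragments 69 and 73 (-0.38 without that pair, adjusted p = 0.834). The call was lost without Eed-/- replicate 1 (0.325), Eed-/- replicate 2 (0.0554) or Ring1B-/- replicate 1 (0.0963). The 1 window of 12 that passed was Hoxd4-Hoxd3 (-1.12, SE 0.30, adjusted p = 0.0384), against 6.76% of all window pairs, and it was lost without Eed-/- replicate 1 (0.158), Eed-/- replicate 2 (0.153), Ring1B-/- replicate 1 (0.0861) or Ring1B-/- replicate 3 (0.145). OS25 UD and WTF18, both undifferentiated, differed by 0.20 in the cluster (SE 0.33, 95% interval -0.53 to 0.93, adjusted p = 0.819).

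**Figure D4:**
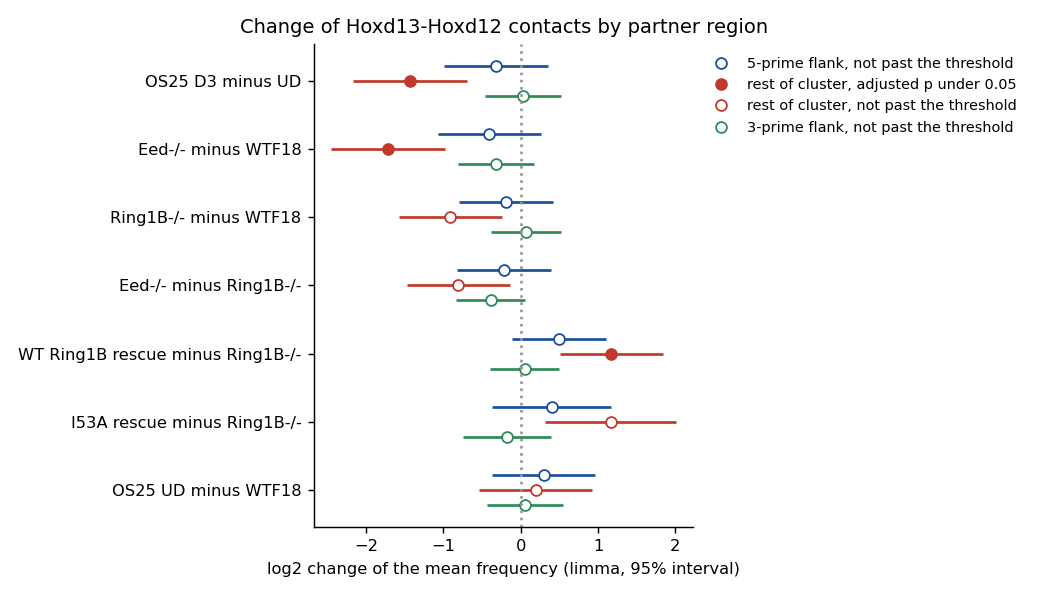
Log2 change of the mean frequency of Hoxd13 and Hoxd12 with the 5′ flank, the rest of the cluster and the 3′ flank in 7 comparisons of ES-cell groups (limma, 95% intervals). Contacts inside the region are not drawn. Filled points passed an adjusted p of 0.05, and the 3 filled points are changes in the cluster: D3 against UD, Eed-/- against WTF18 and the wild-type Ring1B rescue against Ring1B-/-.

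To take out differences that reach all contacts of a library, the cluster mean was set over the mean of each flank within the library. Over the 3′ flank this log2 ratio was 2.87 and 3.76 in OS25 UD, 3.07 and 3.31 in WTF18, 3.41 and 3.22 in the wild-type rescue and 3.58 in the I53A library. It was 1.52 and 2.07 in D3, 1.53 and 2.05 in Eed-/- and 2.39, 1.96 and 2.15 in Ring1B-/-, so that these 3 groups lay below the other four with no overlap. The ratio fell in D3 (-1.52, SE 0.37, adjusted p = 0.00349), in Eed-/- (-1.40, SE 0.37, adjusted p = 0.00240) and in Ring1B-/- cells (-1.02, SE 0.33, adjusted p = 0.0298). It rose in the wild-type rescue (1.15, SE 0.33, adjusted p = 0.0228) and in the I53A library (1.41, SE 0.42, adjusted p = 0.0293).

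Over the 5′ flank it fell in D3 (-1.13, adjusted p = 0.0123) and Eed-/- cells (-1.33, adjusted p = 0.00240) and did not pass in Ring1B-/- (-0.72, adjusted p = 0.0931) or in either rescue (0.66 and 0.75, adjusted p = 0.200 and 0.194). Of the 24 such ratios over all windows of the locus, 29.2% fell in D3, 50% in Eed-/- and 16.7% in Ring1B-/- cells, and 8.33% and 16.7% rose in the rescues, so the region was not alone in this. The Ring1B-/- call over the 3′ flank was lost without WTF18 replicate 2 (adjusted p = 0.381), WTF18 replicate 1 (0.0723) or Ring1B-/- replicate 1 (0.0744). The D3 calls were lost without OS25 UD replicate 2 (0.140 over the 3′ and 0.255 over the 5′ flank) or D3 replicate 1 (0.0950 and 0.201). The call in the wild-type rescue was lost without Ring1B-/- replicate 1 (0.0830), rescue replicate 1 (0.366) or rescue replicate 2 (0.118), and that of the I53A library with primer efficiency factors (1.22, adjusted p = 0.0698).

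The balance between the 2 sides was measured at matched distances, from 100 to 260 kb in steps of 40 kb, as the log2 ratio of the 5′ over the 3′ mean. It was close to 0 in ES cells, from -0.31 in the I53A library to 0.26 in Eed-/- replicate 2. The Eed-/- libraries (0.21 and 0.26) lay above the Ring1B-/- libraries (-0.23, -0.30 and -0.20), and this difference of 0.48 passed (SE 0.13, adjusted p = 0.0322), against 16.7% of the 6 windows tested. It no longer passed without Eed-/- replicate 2 (0.214) or any 1 of the Ring1B-/- libraries (0.0821 to 0.108). D3 changed by 0.10 (SE 0.14, adjusted p = 0.554) and Eed-/- against WTF18 by 0.38 (SE 0.14, adjusted p = 0.147).

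No single fragment pair passed in any comparison of ES cells (limma, 0 of the 327 member pairs that passed the filter on a mean of 0.02, and 0% of 3484 in all). At an unadjusted p under 0.05 the member pairs numbered 39 of 327 (11.9%) in Eed-/- against WTF18 cells, 29 of them lower, beside 9.41% of all pairs. In D3 against OS25 UD they numbered 18 (5.50%), 11 of them lower, beside 3.85%. The measurements of this region therefore rest on averages over pairs.

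The windows whose level moved most like that of the region across the 14 ES-cell libraries lay in the cluster too. For partners 20 to 100 kb away, and without pairs that include the region, Pearson's r of the log2 mean was 0.96 for Hoxd4-Hoxd3 (106 pairs), 0.94 for Hoxd11 (17 pairs) and 0.93 for Hoxd10-Hoxd8 (58 pairs). It was 0.87 for Evx2, 0.44 for Prox, 0.01 for the GCR and -0.60 for Mtx2. These values describe 14 libraries whose windows share pairs with each other and share each library's depth and scaling.

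In the limb lines the profile was flatter, and the posterior line stood above the anterior line on the 5′ side and in the cluster but not on the 3′ side. The strongest pair was fragment 69 with the Hoxd11 fragment 75, at 1.21 and 0.974 in A2 and 1.90 and 2.10 in P2. The Hoxd13 and Evx2 fragments (70 and 67) gave 0.761 and 0.929 in A2 and 0.808 and 1.47 in P2, and the Hoxd13 fragment with the 5′ part of Hoxd3 (fragment 82, chr2:74548286-74552569) gave 0.850 ± 0.11 and 1.17 ± 0.56 (SD, n = 2 each). Limb and ES-cell designs differ in primers and were not tested against each other.

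By region, P2 lay above A2 without overlap in the far 5′ desert (0.0977 and 0.106 against 0.0834 and 0.0758), in the 5′ flank from the GCR to Evx2 (0.170 and 0.163 against 0.139 and 0.121) and in the cluster (0.293 and 0.419 against 0.269 and 0.225). On the 3′ flank the values interleaved (0.0876 and 0.0834 against 0.0885 and 0.0815). None of these passed: the cluster changed by 0.48 (SE 0.19, 95% interval 0.09 to 0.87, adjusted p = 0.136), the region itself by 0.58 (adjusted p = 0.0766), the 5′ flank by 0.32 (adjusted p = 0.408), the far desert by 0.29 (adjusted p = 0.408) and the 3′ flank by 0.01 (adjusted p = 0.972), with 0% of 15 region pairs called. In the far desert 62 of 213 pairs (29.1%) lay higher in both P2 libraries and 12 lower, against 15.1% and 14.4% of all pairs. In the 5′ flank 27 of 125 (21.6%) lay higher and 9 lower, and on the 3′ flank 31 of 207 higher and 30 lower.

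The limb fit gave all windows the same SE, pooled over the window pairs. Among the windows, Hoxd11 rose in P2 by 0.87 (SE 0.24, adjusted p = 0.0174), the 1 window of 15 called, against 1.75% of all 114 window pairs that rose. It rests on 1 fragment pair and was lost without A2 replicate 2 (adjusted p = 0.471), P2 replicate 1 (0.0837) or P2 replicate 2 (0.329). Lnp stood at 0.145 and 0.131 in A2 and 0.181 and 0.199 in P2 (0.41, SE 0.24, adjusted p = 0.996), and the GCR at 0.0924 and 0.0772 in A2 and 0.115 and 0.1004 in P2 (0.29, SE 0.24, adjusted p = 0.996). Both windows were higher in both P2 libraries, and neither difference passed.

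Contacts with the far desert did not decline with distance. Its distal part, centred at -617 kb, stood at 0.0939 and 0.0921 in A2 and 0.112 and 0.123 in P2. Its proximal part, centred at -330 kb, stood at 0.0683 and 0.0526 in A2 and 0.0791 and 0.0800 in P2, so the distal part was 1.37 to 1.75 times as high in the 4 libraries. IslIII stood at 0.0743 and 0.0623 in A2 and 0.0689 and 0.109 in P2. It lay between the 2 parts in both A2 libraries and P2 replicate 2, and below both in P2 replicate 1. The same ratio ran from 1.30 to 1.54 for Hoxd11, 1.36 to 1.62 for the desert beyond Mtx2 and 0.760 to 0.875 for the GCR, so the excess of the distal part was shared by windows on the other side of the cluster. The 2 parts were read with different primers, without correction for primer efficiency, and the part of the primers in this excess was not tested. The highest single pair of the far desert joined the Hoxd13 fragment to a fragment 608 kb away (chr2:73887762-73913258), at 0.407 ± 0.18 in A2 and 0.480 ± 0.24 in P2 (SD, n = 2 each).

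At matched distances of 100 to 260 kb the region's contacts leaned to the 5′ side in both lines, by 0.33 and 0.17 on the log2 scale in A2 and by 0.74 and 0.70 in P2. The difference of 0.47 (SE 0.10) was larger than the spread of either pair of libraries and had an adjusted p of 0.121, with 0% of the 13 windows called. Around the region the sign of this ratio changed: in A2 it was 0.86 ± 0.25 (SD, n = 2) for Evx2, -0.28 ± 0.0084 for Hoxd11 and -1.18 ± 0.16 for Hoxd10-Hoxd8. In P2 it was 1.03 ± 0.34, -0.12 ± 0.22 and -1.31 ± 0.037. Hoxd13 and Hoxd12 were thus the last windows of the cluster, going 3′, with a mean above 0 in both lines. Further 5′ the sign was mixed. The means in A2 and P2 were 0.78 and 1.07 for Prox and 0.50 and 0.54 for IslIII. They were -0.24 and -0.27 for Lnp, -0.28 and -0.24 for the GCR, and -0.04 and -0.15 for the proximal far desert.

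**Figure D5:**
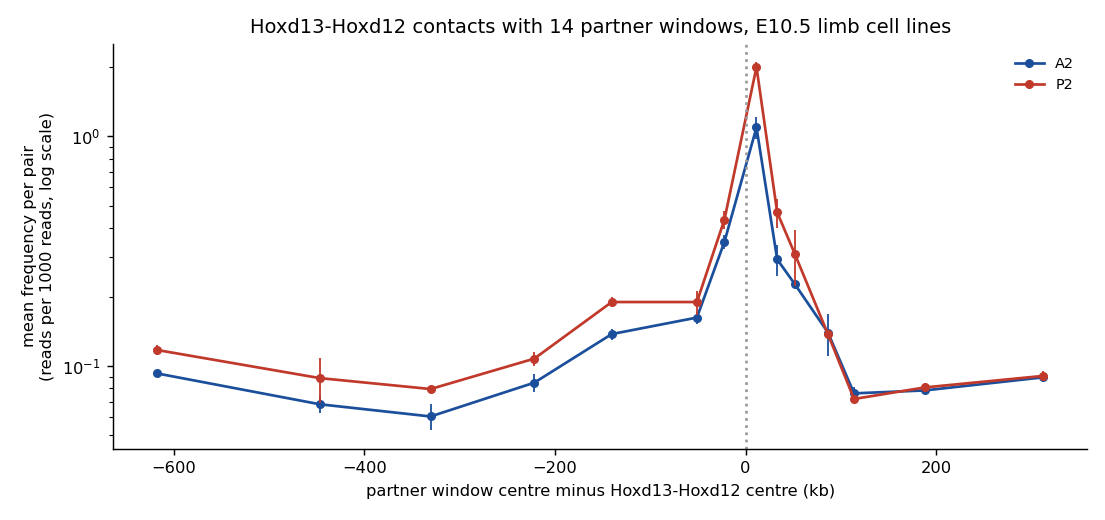
Mean frequency per fragment pair (reads per 1000 reads, log scale) of the Hoxd13 and Hoxd12 fragments with 14 partner windows in the limb lines, by distance in kb from the centre of the region (negative, 5′ side). Points are means of 2 libraries and vertical lines run between them; P2 lies above A2 in every window on the 5′ side by its mean, and the lines meet at the Hoxd1 window and stay together past it.

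No fragment pair passed in P2 against A2 (limma, 0 of 549 member pairs past the filter and 0% of 8157). At an unadjusted p under 0.05 there were 15 member pairs (2.73%), 13 of them higher in P2, beside 3.25% of all pairs.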

How the data were processed

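5C libraries were sequenced by Ion Torrent, and the 18 deposited matrices hold normalized signal for every forward-reverse fragment pair: per the paper's methods the authors scaled interaction frequencies by the total sequence reads. Coordinates are mm9; the sources used here do not name an aligner. Fragment bounds were checked against NCBIM37, and genes are from GENCODE vM1. Window bounds were set by eye from drawn gene and element positions or fragment ends. Forward and reverse sides were read from which pairs hold reads. In the limb design this split differs by a few fragments from the primer numbers in the methods, and the set of limb pairs rests on it.

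Pairs under 10 kb apart were left out, and frequencies were averaged over pairs per library. Log2(mean + 0.02) was tested by limma 3.58.1 in R 4.3.3 over all region pairs, window pairs (mean above 0.02) or fragment pairs, ES-cell groups in 1 fit and limb groups in another, two-sided, with Benjamini-Hochberg adjustment within each comparison and a threshold of 0.05. Fold changes are on that scale and understate changes of low values. The fit was run on simulated fragment pairs with large added changes and a spread set well below that estimated from the data. That run checks the code and cannot show how the fit performs at the real spread. P-values measure only the spread between the labelled libraries, and limma shares that spread among the rows of a fit. In the limb fits the sharing was complete. Every window had an SE of 0.237 (228 degrees of freedom) and every region 0.191 (30 degrees of freedom). Limb p-values for windows and regions thus do not measure the spread of the single window or region. Windows and region pairs share fragments, so they are not independent.

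The windows, lists and tests were chosen with earlier results of these data known. The rule for naming took all windows, the 5 strongest pairs of each group and the highest pair in each flank. Of those pairs only some are described, and which ones was chosen after their values were seen. The ratio of cluster to flank, counts of non-overlapping pairs and leave-one-out for fragment pairs were added after seeing the data.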

Additional observations from a re-analysis of the deposited data

How the results depend on the processing

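No paired analysis was possible because replicate numbers stand in the labels of Ring1B-/- libraries alone, and those of the other groups were given in accession order. A planned test on read counts (edgeR) was not run here. The fall of cluster contacts in Eed-/- against WTF18 cells passed in all alternatives run (-1.91 to -1.46). Leaving out 1 library at a time, the cluster change ran from -1.84 to -1.02 in D3 against OS25 UD, -1.19 to -0.70 in Ring1B-/- against WTF18, -1.01 to -0.52 in Eed-/- against Ring1B-/-, 0.97 to 1.45 in the wild-type rescue, 0.96 to 1.44 for I53A and -0.22 to 0.61 in OS25 UD against WTF18. With the compared groups alone, D3 stood at -1.43 (adjusted p = 0.0580), and with libraries scaled to equal sums the wild-type rescue stood at 1.01 (0.0580). A minimum distance of 20 kb brought past the threshold Ring1B-/- against WTF18 (-0.87), Eed-/- against Ring1B-/- (-0.80) and I53A (1.14). Primer factors did so for Ring1B-/- (-1.27), and leaving out fragment 69 for Eed-/- against Ring1B-/- (-1.005). With primer factors OS25 UD against WTF18 was -0.053. The 5′ over 3′ ratio with primer factors was 0.21 in Ring1B-/- against WTF18 and 0.50 (adjusted p = 0.259) in Eed-/- against Ring1B-/-. Leaving out 1 library, it ran from 0.45 to 0.50 in the latter, 0.19 to 0.47 in the wild-type rescue and -0.039 to 0.11 in OS25 UD against WTF18, and the limb ratio of cluster to 5′ flank from -0.14 to 0.44.

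Calls in a flank numbered 1 in Eed-/- with primer factors and 0 to 1 without a library in Eed-/- against Ring1B-/- and in the wild-type rescue. Windows called without 1 library numbered 0 to 2 in D3, 1 to 4 in Eed-/-, 0 to 2 in Ring1B-/-, 0 to 2 in Eed-/- against Ring1B-/-, 0 to 5 in the wild-type rescue, 0 to 4 for I53A (the highest counts of the rescues without Ring1B-/- replicate 3) and 0 to 3 in limb cells. Scaling gave 3 in D3. In Eed-/- cells, scaling, a pseudocount of 0.1 or leaving out fragment 68, 70 or 73 gave 3, and leaving out the highest pair gave 1. In Eed-/- against Ring1B-/-, the compared groups alone, scaling, the pseudocount of 0.1, the highest pair left out, primer factors and leaving out fragment 73 or 74 gave 0, and the 20 kb minimum and leaving out fragment 68 or 71 gave 2. In limb cells, scaling, a pseudocount of 0.005, the 20 kb minimum, the highest pair left out and leaving out fragment 69 gave 0, and leaving out fragment 71 gave 2. Without the filter on low values 4 pairs were called in Eed-/-, 2 in Ring1B-/-, 4 in Eed-/- against Ring1B-/-, 1 in the wild-type rescue and 2 for I53A, with the pseudocount of 0.1 1 in Eed-/-, and 0 to 2 in limb cells without 1 library. The cause of these changes was not tested.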
